A study of Homo sapiens with 6 samples.

Results

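Expression of 9 genes of the melanoma antigen (MAGE) family, among the 28395 gene identifiers in the count table, was compared between WT and NUAK2-CR U251 glioblastoma cells. They were 4 MAGE-A genes, whose expression is largely restricted to the germline and to tumours (MAGEA1, MAGEA3, MAGEA6 and MAGEA12), and 5 genes of the family that are expressed in many tissues (MAGED1, MAGED2, MAGEF1, MAGEH1 and NDN). The genes were selected on measured values of this same comparison, by matching their NCBI gene identifiers, so their differences between the groups are given as a description and without a test. RNA was sequenced from 3 WT libraries and 3 NUAK2-CR libraries of U251 (U251MG), an established human glioblastoma astrocytoma line. NUAK2-CR cells had received a CRISPR guide against NUAK2, an AMPK-related kinase, from a pair of lentiviral vectors carrying GFP and mCherry, and doubly fluorescent cells were sorted into single wells and grown as clones. The WT cells are described only by that genotype, the labels name no clone for either group, and although the study speaks in general of independent experiments, neither it nor the labels ties a library to a culture of its own, so errors measure the spread between these libraries.

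MAGE proteins share a conserved MAGE homology domain, through which many of them bind RING-type E3 ubiquitin ligases. Type I genes such as the MAGE-A family lie on the X chromosome, are silenced by promoter DNA methylation in most adult tissues, and are reactivated in many tumours, where their peptides are presented to T cells as cancer/testis antigens. Type II genes, among them MAGED1, MAGED2, MAGEF1, MAGEH1 and NDN, are transcribed broadly, including in the brain.

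Library totals ranged from 29648445 to 55574081 counts. NUAK2 itself averaged 1654 ± 243 normalized counts in WT libraries, against 869.5 ± 83.2 in NUAK2-CR (mean ± SD, n = 3 libraries each), a log2 fold change of -0.93 with a standard error (SE) of 0.11 (edgeR, adjusted p = 1.8e-05). The NUAK2-CR libraries thus held 52.6% of the WT level of the targeted transcript, with no overlap between the groups. Normalized counts are counts scaled to a common library size. Of 14873 genes that passed the filter on low counts, 4.72% were called, meaning an adjusted p under 0.05 with an absolute log2 fold change over 2, and 2.83% were called lower in NUAK2-CR. The normalized counts of the WT and NUAK2-CR libraries did not overlap for 61.4% of the tested genes. Among the 10 glial markers, all but AQP4 were above 3 counts in at least 1 library, and their summed level ran from 393281 to 443219 normalized counts in WT and from 199589 to 213559 in NUAK2-CR. Of 10 germ cell markers, 7 had at most 3 counts in every library and 6 had none. The summed level of all 10 ran from 175 to 235 normalized counts in WT and from 279.8 to 357 in NUAK2-CR, nearly all of it KIT, which other cells can express too. Without KIT the sum was at most 14.5 normalized counts in a WT library and at most 16.9 in a NUAK2-CR library, so the other germ cell markers were near 0 in both groups. Summed levels of 4 leukocyte markers ran from 658 to 741 in WT and from 204 to 250.8 in NUAK2-CR, those of 3 endothelial markers from 17.2 to 31.2 and from 84.4 to 90.2, and those of 3 epithelial markers from 2084 to 2258 and from 1398 to 1553. The part of these marker differences in the MAGE values was not tested.

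The sequences of the MAGE-A genes bear on what their counts can separate. MAGEA3 and MAGEA6 are near-identical, with 18 differing bases among the 945 of their coding sequences (98.1% identity), whereas MAGEA12 was 92.2% identical to MAGEA3 (871 of 945 bases, aligned without a gap), and MAGEA1 80.4% in a gapped global alignment whose penalties can move the last digits. Of all 100-base stretches of the MAGEA3 transcript, the read length of these libraries, 61.4% occurred in no other gene, and the 611 others were shared with MAGEA6. For MAGEA1, MAGEA12, MAGED1, MAGED2, MAGEF1, MAGEH1 and NDN every such stretch was unique. The stretch of coding bases 573 to 632 (GRCh38, GENCODE v44, chrX:152701405-152701464 on the plus strand for MAGEA3 and chrX:152767019-152767078 on the minus strand for MAGEA6) is shown because its 4 differing bases, in capitals, allow a read to be assigned to 1 of the pair:
MAGEA3: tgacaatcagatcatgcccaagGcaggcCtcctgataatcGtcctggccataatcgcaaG
MAGEA6: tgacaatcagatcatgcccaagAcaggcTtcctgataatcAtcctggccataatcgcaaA

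Just upstream of the transcript start the pair was identical. The 250 bases before the start of MAGEA3 (RefSeq, GRCh38.p14, chrX:152698544-152698793, plus strand) and of MAGEA6 (chrX:152769690-152769939, minus strand) differed at 0 positions. Windows were found for 7 of the 9 genes, those other than MAGEA1 and MAGEH1. They are shown for MAGEA3, whose letters are also those of MAGEA6, for MAGEA12 (chrX:152733507-152733756, plus strand) and for MAGED1 (chrX:51893373-51893622, plus strand), so that the window shared by a slightly and a strongly lower gene can be set beside that of another MAGE-A gene and of a broadly expressed gene. MAGEA12 and MAGED1 each have a second window, and the one shown ends at the start of the transcript used for lengths here. CpG dinucleotides, the sites of DNA methylation, are in capitals:
MAGEA3: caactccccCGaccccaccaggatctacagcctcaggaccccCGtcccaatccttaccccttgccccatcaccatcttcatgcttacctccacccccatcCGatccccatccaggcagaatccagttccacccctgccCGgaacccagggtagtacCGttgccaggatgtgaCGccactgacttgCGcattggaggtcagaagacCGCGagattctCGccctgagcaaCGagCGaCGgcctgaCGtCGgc
MAGEA12: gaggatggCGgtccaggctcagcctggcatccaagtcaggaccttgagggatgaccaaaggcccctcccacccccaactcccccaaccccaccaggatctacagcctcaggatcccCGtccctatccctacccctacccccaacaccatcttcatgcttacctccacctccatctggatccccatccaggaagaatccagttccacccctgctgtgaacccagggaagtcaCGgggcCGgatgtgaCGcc
MAGED1: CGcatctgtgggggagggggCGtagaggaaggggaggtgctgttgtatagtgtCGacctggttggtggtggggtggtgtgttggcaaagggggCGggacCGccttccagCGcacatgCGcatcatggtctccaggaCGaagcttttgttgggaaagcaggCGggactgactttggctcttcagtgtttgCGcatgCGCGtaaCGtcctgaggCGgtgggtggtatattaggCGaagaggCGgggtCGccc

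The MAGEA3 and MAGEA6 windows held 15 CpG each, the MAGEA12 window shown held 5 and its other window 13, and the MAGED1 window shown held 17 and its other window 6, against a median of 11 over 35116 RefSeq windows. The Ets-type motif CCGGAA, searched on both strands, occurred in the MAGEA3, MAGEA6 and MAGEF1 windows and in 14.5% of all windows. The variant CCGGAT occurred in both MAGEA12 windows and in 5.9% of all windows. Neither motif was found in the MAGED1, MAGED2 or NDN windows. These matches are letters in a window, and the libraries carry no measurement of binding or methylation at them.

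The MAGE-A genes were lower in NUAK2-CR than in WT by very unequal amounts. MAGEA1 (NCBI 4100, chrX:153179284-153183880) encodes the antigen first recognised by T cells in melanoma. It had 266, 154 and 163 counts in WT libraries 1, 2 and 3, and 2, 4 and 6 counts in the NUAK2-CR libraries. In normalized counts these were 177, 149 and 175 against 2.54, 4.82 and 6.59. All 3 NUAK2-CR values lay far under the lowest WT value, and 1 of them was under the floor of 3 counts. The mean was 2.79% of WT and the log2 fold change -5.10 (SE 0.32). In bulk RNA, fewer cells expressing a gene and less RNA per cell cannot be told apart, here or for the genes that follow.

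MAGEA6 (NCBI 4105, chrX:152766136-152769689) is, like MAGEA3, a partner of the E3 ligase TRIM28 and a subunit that directs it to AMPK alpha1. In WT it had the third most counts per transcript length among the listed genes. Its normalized counts were 4728, 4414 and 4765 in WT and 361, 299 and 378 in NUAK2-CR. The lowest WT library was far above the highest NUAK2-CR library, and both groups were tight. The mean fell to 7.46% of WT, a log2 fold change of -3.74 (SE 0.09).

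MAGEA3 (NCBI 4102, chrX:152698794-152702347) did not follow its near-identical copy. Normalized counts of MAGEA3 were 5434, 5108 and 5317 in WT and 3191, 3515 and 3539 in NUAK2-CR. The groups did not overlap, and the NUAK2-CR mean was 64.6% of WT, with a log2 fold change of -0.63 (SE 0.07). With the counts of MAGEA3 and MAGEA6 summed into 1 feature, the log2 fold change was -1.40.

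MAGEA12 (NCBI 4111, chrX:152733757-152737669), a further cancer/testis antigen of the family, showed the smallest difference of the 4. Its normalized counts were 2563, 2500 and 2436 in WT and 1792, 1918 and 1872 in NUAK2-CR. The groups did not overlap, and the mean was 74.4% of WT (log2 fold change -0.43, SE 0.07). MAGEA1 and MAGEA6 therefore passed both call thresholds, while MAGEA3 and MAGEA12 were well short of the fold threshold. Since this contrast chose the genes, nothing is read from 2 of 4 being called against the 4.72% background.

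**Figure D1:**
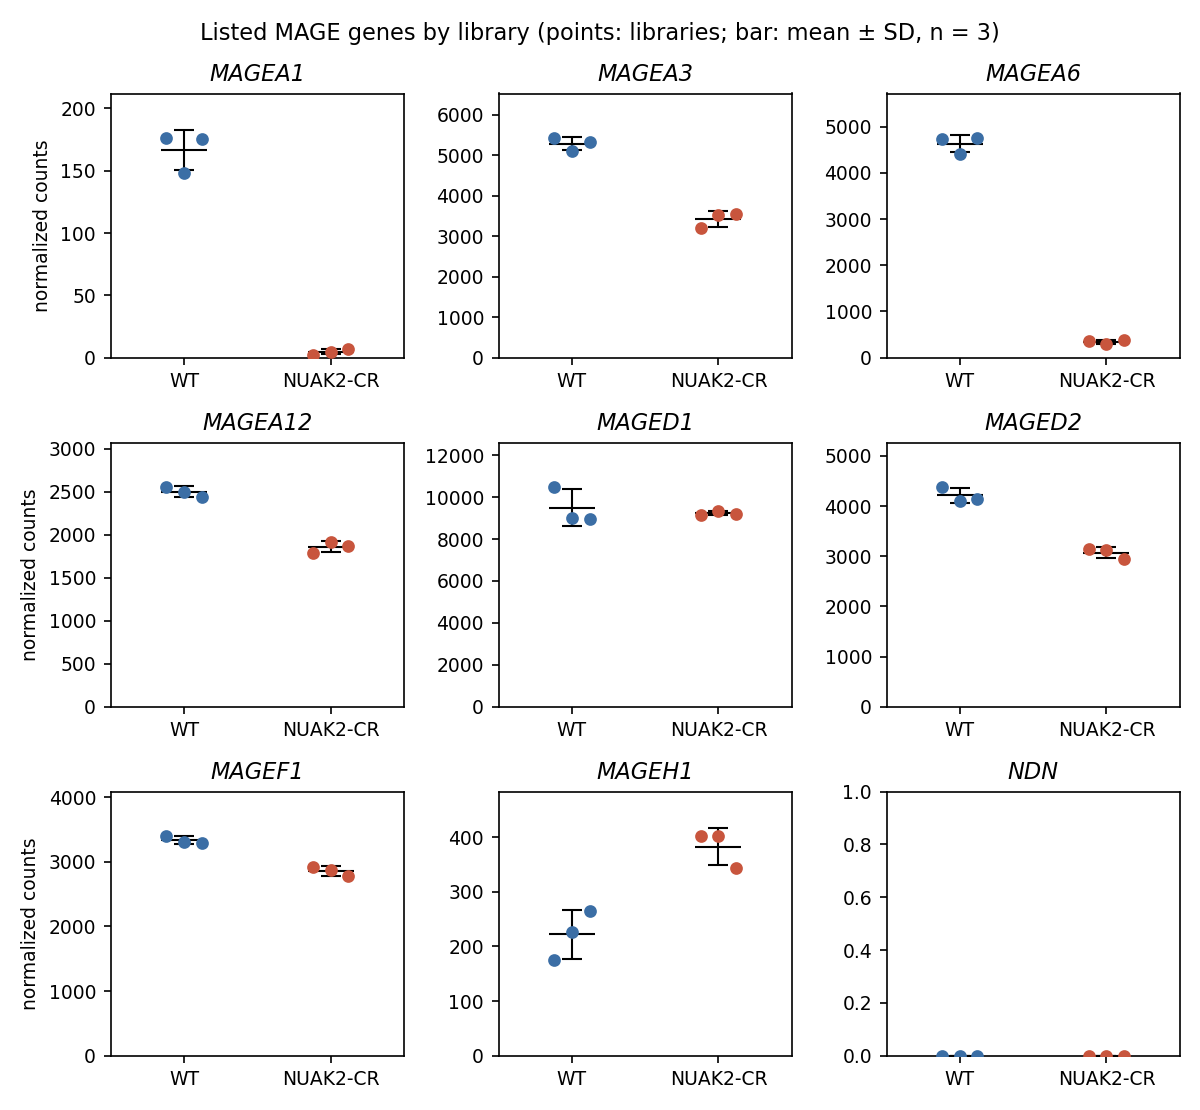
Normalized counts (y axis, starting at 0, a separate scale for each gene) of the 9 MAGE genes in WT and NUAK2-CR libraries (x axis). Points are libraries and bars the mean ± SD of 3. In NUAK2-CR, MAGEA1 and MAGEA6 are at 2.79% and 7.46% of WT, MAGEA3 and MAGEA12 stay at 64.6% and 74.4%, and NDN is at 0 throughout.

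The broadly expressed genes moved little and in both directions. MAGED1 (NCBI 9500, chrX:51803076-51902354), also known as NRAGE, binds the neurotrophin receptor NGFR. It had 10506, 9024 and 8934 normalized counts in WT libraries, against 9164, 9337 and 9215 in NUAK2-CR. The groups overlapped, with WT library 1 above every other library and the other WT libraries below all of NUAK2-CR. The mean was 97.4% of WT and the log2 fold change -0.04 (SE 0.07), and leaving out single libraries moved it between -0.08 and 0.05, with the positive value without WT library 1.

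MAGED2 (NCBI 10916, chrX:54807745-54816015), which is required for salt reabsorption in the fetal kidney, had 4389, 4108 and 4145 normalized counts in WT libraries, against 3134, 3131 and 2937 in NUAK2-CR. The groups did not overlap, and the mean was 72.8% of WT (log2 fold change -0.46, SE 0.07). The MAGED2 difference was thus of the size of that of MAGEA12 and MAGEA3. MAGEF1 (NCBI 64110, chr3:184710364-184712064), a single-exon gene whose protein directs an E3 ligase to the iron-sulfur assembly factor MMS19, had 3407, 3308 and 3296 normalized counts in WT libraries, against 2926, 2867 and 2779 in NUAK2-CR. These groups also did not overlap, with a mean at 85.6% of WT (log2 fold change -0.22, SE 0.06).

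MAGEH1 (NCBI 28986, chrX:55452127-55453566), a small single-exon MAGE gene, went the other way. It had 175, 226 and 266 normalized counts in WT libraries, against 401, 403 and 344 in NUAK2-CR. All NUAK2-CR libraries were above all WT libraries, the mean being 172% of WT (log2 fold change 0.79, SE 0.16). MAGEH1 was the only listed gene with a higher mean in NUAK2-CR.

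NDN (NCBI 4692, chr15:23685400-23687305), which encodes the growth suppressor necdin and is expressed from the paternal allele, had 0 counts in all 6 libraries, which allows up to 3 counts in each. The label of a broadly expressed gene therefore did not hold for NDN in these cells. Its transcript matched a single place in hg38, and none of its 100-base stretches was shared with another gene. Of 11 listed genes of the imprinted 15q11-q13 region, 10 were in the table, 4 had no count and 4 were tested. SNRPN is among those with no count, but its span holds that of SNURF, and how reads over both were counted was not tested. None of the 4 tested genes was called (edgeR, with 2 under an unadjusted p of 0.05), which with 4.72% called over all genes says little of so short a list. MKRN3, an imprinted gene of the same region, fell by 1.06 on the log2 scale (SE 0.17, edgeR, adjusted p = 1.6e-04). UBE3A fell by 0.93 (SE 0.06, edgeR, adjusted p = 1.41e-07), while IPW, a noncoding RNA of the region, was at 0.13 (SE 0.09, edgeR, adjusted p = 0.257).

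With the classes side by side, log2 fold changes had a median of -2.19 for the 4 MAGE-A genes and of -0.13 for the 4 broadly expressed genes that were tested, a gap of -2.06. Over all 14873 tested genes the median was -0.01. The 4 MAGE-A values ran from -5.10 to -0.43, so the class median fell in the gap between MAGEA6 and MAGEA3, and the values of MAGEA3 and MAGEA12 were close to that of MAGED2. The summed MAGE-A level was 12589 ± 376 normalized counts in WT libraries, against 5626 ± 244 in NUAK2-CR, or 44.7% of WT. The summed broadly expressed level was 17261 ± 1053 in WT and 15545 ± 242 in NUAK2-CR, or 90.1%. Groups did not overlap for 4 of 4 MAGE-A genes and for 3 of 4 tested broadly expressed genes, against 61.4% of all tested genes.

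Per kilobase of transcript, which allows a rough comparison of levels between genes, MAGED1 led the WT libraries with 3484 ± 324 normalized counts per kb. MAGEA3 followed with 3143 ± 98.2, a difference smaller than the sum of both SDs although no libraries overlapped, and MAGEA6 with 2756 ± 115. MAGED2 (2054 ± 74.4) and MAGEF1 (1962 ± 35.9) overlapped in their libraries, and MAGEA12 stood at 1395 ± 35.4. MAGEH1 (154 ± 31.4) and MAGEA1 (97.5 ± 9.25) were lowest of the detected genes. In WT, then, MAGEA3 and MAGEA6 had more counts per length than MAGED2, MAGEF1 and MAGEH1. The length is that of the whole transcript, though only 61.4% of the 100-base stretches of MAGEA3 and MAGEA6 are unique, against 100% for MAGED1. How reads of the shared stretches were counted is not stated, so the places of MAGEA3 and MAGEA6 are uncertain in both groups.

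In NUAK2-CR the order per kilobase was MAGED1 (3393 ± 32.6), MAGEA3 (2030 ± 116), MAGEF1 (1680 ± 43.5), MAGED2 (1495 ± 55.1), MAGEA12 (1038 ± 35.6), MAGEH1 (266 ± 23.4), MAGEA6 (206 ± 24.6) and MAGEA1 (2.72 ± 1.19). By whole transcript length, MAGEA6 had moved from above MAGED2 to below MAGEH1. MAGEA3 was again second, and all neighbours in this order were separated without overlap of their libraries. The places of MAGEA3 and MAGEA6 remain uncertain here too, since only 61.4% of their 100-base stretches are unique.

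Within a library, the ratio of MAGEA6 to MAGEA3 counts depends on no scaling between libraries. It was 0.870, 0.864 and 0.896 in WT and 0.113, 0.0851 and 0.107 in NUAK2-CR, or 0.877 ± 0.0171 against 0.102 ± 0.0146. The pair was nearly balanced in every WT library and strongly unequal in every NUAK2-CR library. The ratio of MAGEA12 to MAGEA3 counts changed far less, from 0.473 ± 0.0158 to 0.545 ± 0.0164. Of the counts of the 4 MAGE-A genes, the share of MAGEA6 went from 36.8% to 6.16%, that of MAGEA1 from 1.32% to 0.0818%, that of MAGEA3 from 42.0% to 60.7% and that of MAGEA12 from 19.9% to 33.1%. How reads from the sequence shared by MAGEA3 and MAGEA6 were divided is not given in the sources used here, and any such sharing would enter both genes.

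**Figure D2:**
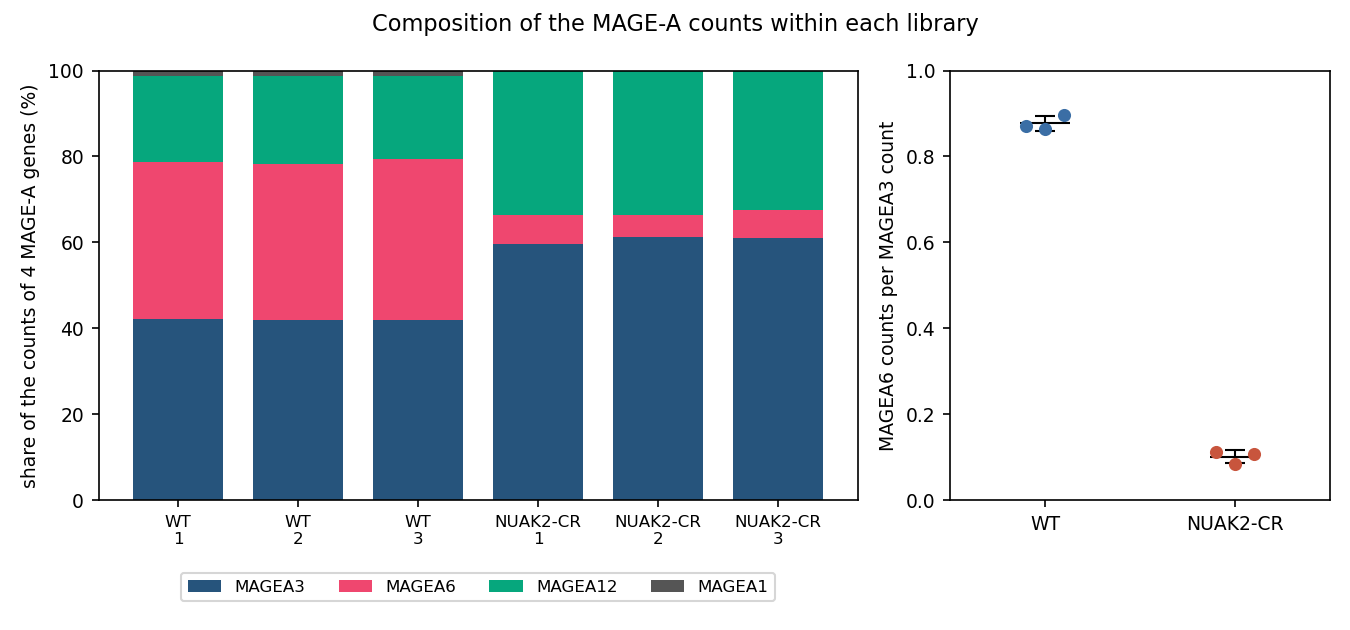
Left, the share in percent (y axis) that MAGEA3, MAGEA6, MAGEA12 and MAGEA1 hold of their summed counts in each library (x axis). Right, MAGEA6 counts per MAGEA3 count, with points for libraries and bars for the mean ± SD of 3; the ratio is 0.877 in WT and 0.102 in NUAK2-CR.

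MAGEA3, MAGEA6 and MAGEA12 lie in a block of 9 tested genes at Xq28 that is arranged as an inverted repeat. Its arms, chrX:152678581-152729753 and chrX:152738708-152789895, were 98.89% identical over 51256 aligned bases and flank a spacer of 8954 bases. MAGEA3 lies in the first arm and MAGEA6 at the mirrored position in the second, with centres 33.7 kb to either side of the middle, while MAGEA12 lies in the spacer. MAGEA1 lies outside the block on the same chromosome arm.

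The genes of the block had either strongly or slightly lower mean counts, although the difference of CSAG4 was about the size of its SE. Of the copies that can largely be told apart, MAGEA3 in the first arm was slightly lower and MAGEA6 in the second strongly lower. Among the genes annotated in the first arm MAGEA3 was at -0.63, CSAG2 at -4.74 (SE 0.33) and MAGEA2B at -3.58 (SE 0.17). Among those of the second arm MAGEA2 was at -3.49 (SE 0.20), CSAG3 at -4.00 (SE 0.27) and MAGEA6 at -3.74. In and beside the spacer MAGEA12 was at -0.43, CSAG1 at -0.28 (SE 0.10) and CSAG4 at -0.41 (SE 0.41), the last overlapping MAGEA12 on the same strand. CSAG1, CSAG3 and CSAG4 are named for their place in the block, chosen after their values were seen. MAGEA2 and MAGEA2B share all of their 100-base stretches, and only 11.9% of those of CSAG2 and 13.4% of those of CSAG3 were unique, so the split of counts within these pairs is uncertain and their values cannot be assigned to an arm. MAGEA2 counts per MAGEA2B count were 0.551 ± 0.0254 in WT and 0.607 ± 0.208 in NUAK2-CR, a difference within the spread between libraries.

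**Figure D3:**
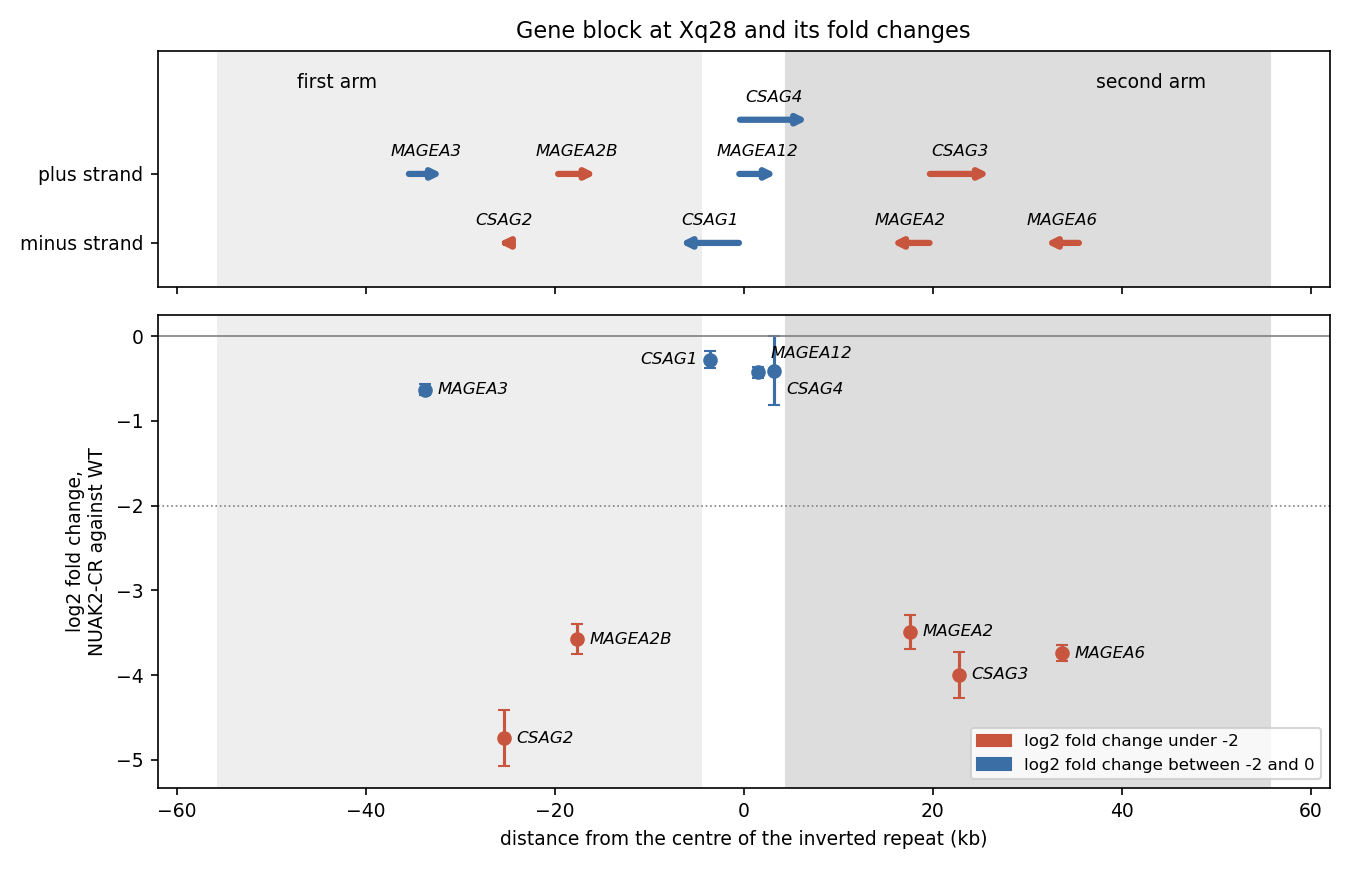
Upper panel, genes of the block by strand against distance in kb from the centre of the inverted repeat (x axis), with the arms shaded; lower panel, log2 fold change of NUAK2-CR against WT (y axis) with SE bars. Red marks genes under -2 and blue those between -2 and 0: MAGEA3 is at -0.63 in the first arm and MAGEA6 at -3.74 in the second, the counts of MAGEA2, MAGEA2B, CSAG2 and CSAG3 cannot be assigned to an arm, and MAGEA12, CSAG1 and CSAG4 sit near 0 around the spacer.

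Genes around the listed genes were also lower in NUAK2-CR by their medians. For the 20 tested genes nearest to each, leaving out MAGE and cancer/testis genes, the median was -0.53 at MAGEA1, MAGEA3, MAGEA6 and MAGEA12, -0.32 at MAGED1, -0.37 at MAGED2, -0.31 at MAGEF1, -0.33 at MAGEH1 and -0.96 at NDN. All 548 tested genes of the X chromosome had a median of -0.41, and 429 of them were below 0. Set against the median of their neighbours, MAGEA3 differed by -0.10 and MAGEA12 by 0.10, so these genes lay near that median. MAGED2 (-0.09) and MAGEF1 (0.08) also lay near theirs. The differences were -4.58 for MAGEA1 and -3.22 for MAGEA6. MAGED1 (0.28) and MAGEH1 (1.12) lay above the medians of their neighbours. Single neighbours ranged widely, from -7.82 to 2.15 at each of the MAGE-A genes. They ran from -1.93 to 1.58 at MAGED1 and from -3.89 to 1.44 at MAGEH1. The closeness to neighbours depended on how many were taken. With the 10 nearest genes, the median was -0.67 at MAGEA3, which stayed near it at -0.63. It was -0.69 at MAGEA12, which lay above it at -0.43, and -0.255 at MAGED2, which lay below it at -0.46. Whether the regional values have a part in the differences of the listed genes was not tested.

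**Figure D4:**
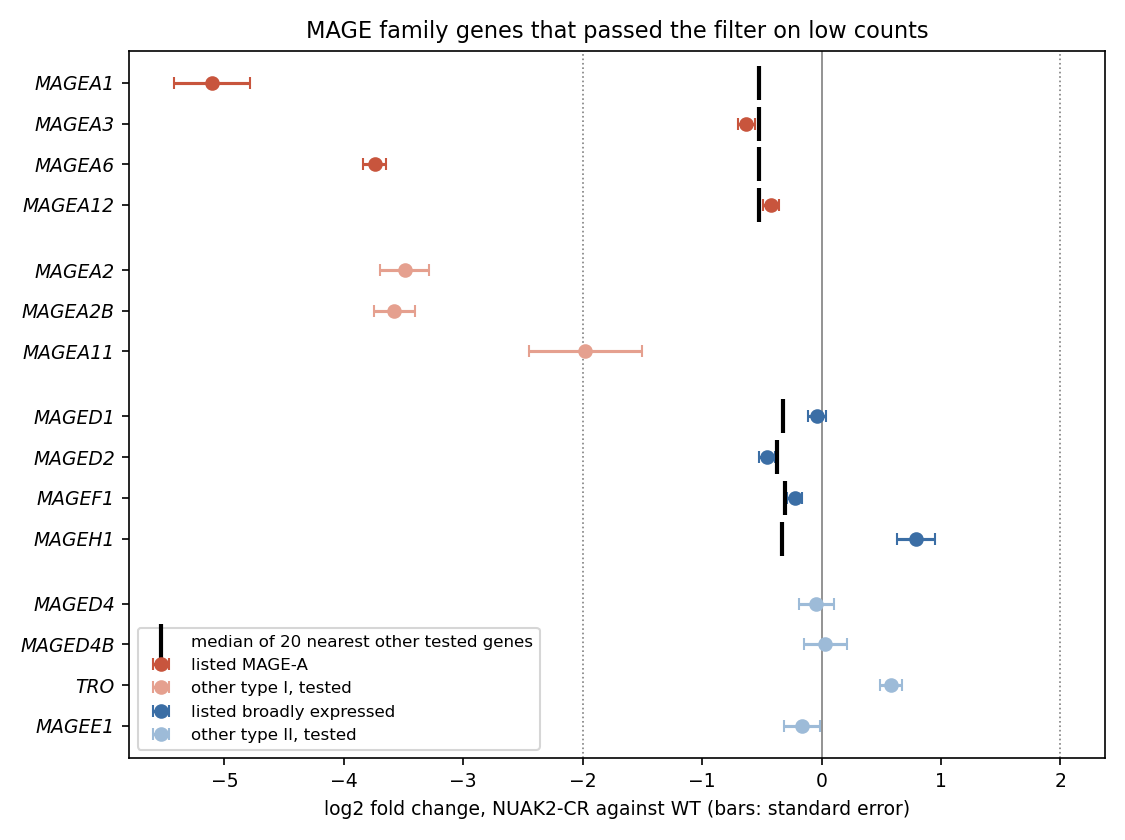
Log2 fold change of NUAK2-CR against WT (x axis, bars SE) for every MAGE family gene that passed the filter (y axis), with the median of the 20 nearest other tested genes as a black tick for the listed genes. MAGEA3 and MAGEA12 sit beside their ticks, MAGEA1 and MAGEA6 differ from theirs by -4.58 and -3.22, and dotted lines mark the call threshold of 2 in either direction.

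Among other MAGE genes, the type I list held 23 genes, of which 22 were in the table, 9 had no count and 3 were tested. All 3 fell at an adjusted p under 0.05, where 28.2% of all tested genes did. They lie on the X chromosome, where 301 of 548 tested genes fell at that threshold and 48 were called lower. The 2 called were MAGEA2 and MAGEA2B, where 4.72% of all tested genes were called and 2.83% were called lower. With near-identical copies summed, this pair gave 1 call. MAGEA2 went from 320.8 ± 38.1 to 28.4 ± 4.98 normalized counts (edgeR, adjusted p = 3.58e-08), and MAGEA2B from 583 ± 68.2 to 48.9 ± 9.65 (edgeR, adjusted p = 7.0e-09). MAGEA11, a coregulator of the androgen receptor, fell by 1.98 on the log2 scale (SE 0.47, edgeR, adjusted p = 0.00359), just short of the fold threshold. MAGEA8 did not pass the filter and had 14, 16 and 12 counts in WT libraries, against 0 in every NUAK2-CR library, at least 3.51-fold lower with 3 counts per library as the floor. The other type I genes with enough counts to test were thus lower, as were the listed MAGE-A genes. MAGEA11 had at most 10 counts in a NUAK2-CR library and passed the filter through its WT level. MAGEA2 and MAGEA2B cannot be counted as separate genes, so nothing is read from the shared direction or from the number of calls.

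Of 7 other type II genes, 4 were tested and 0 were called by edgeR or by DESeq2, with 1 under an unadjusted p of 0.05 in edgeR. With 4.72% called over all genes, a count of 0 among 4 is near the background. TRO, which encodes the adhesion protein trophinin, rose from 717 ± 31.1 to 1074 ± 97.5 normalized counts (log2 fold change 0.58, edgeR, adjusted p = 1.69e-04). It was the sole member at an adjusted p under 0.05, where 26.3% of all tested genes rose. MAGED4 (-0.04, SE 0.15), MAGED4B (0.03, SE 0.18), a pair of copies whose counts are uncertain, and MAGEE1 (-0.16, SE 0.15) had adjusted p of 0.820, 0.897 and 0.393 (edgeR). Of all tested type II genes, MAGED2 had the lowest log2 fold change.

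Genes for proteins known to bind MAGE proteins mostly moved by small amounts. Of 25 listed, 22 were tested, 10 fell and 7 rose at an adjusted p under 0.05, and 1 was called, NGFR. Over all genes 28.2% fell, 26.3% rose and 4.72% were called, so the single call is near the background. NGFR, the receptor bound by MAGED1 and by necdin, had 2350, 2004 and 2129 normalized counts in WT libraries, against 60.9, 82.0 and 86.7 in NUAK2-CR, with a log2 difference of -4.81 (SE 0.13, edgeR, adjusted p = 6.27e-11). TRIM28, the ligase partner of MAGEA3 and MAGEA6, was at -0.08 (SE 0.09, edgeR, adjusted p = 0.501), with overlapping groups. It did not pass the test, whereas the level of MAGEA6 was 7.46% of WT.

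Other cancer/testis genes were also lower in NUAK2-CR. Of 69 listed, 68 were in the table, 31 had no count and 13 were tested. All 13 were lower at an adjusted p under 0.05, and 9 were called, 8 of them among the 10 tested on the X chromosome. Summing near-identical copies left 7 called, so the 9 count such copies separately. Members at or near 0 in NUAK2-CR passed the filter on low counts only through their WT level and so had to differ, and with at least 10 counts in every library 0 were called. The tally is therefore not read against the background, and such genes had also been looked at in these data before. Their median was -4.00 on the log2 scale, or -2.85 with genes at 0 in NUAK2-CR set to their bound. PASD1 had 221, 203 and 250.5 normalized counts in WT and was at 0 in NUAK2-CR, at least 62.8-fold lower. SSX2B (at least 33.3-fold lower), SSX2 (15.9), PAGE5 (7.18) and CT45A10 (6.96) were likewise at 0 in every NUAK2-CR library, the floor being 3 counts per library. The remaining called genes were CSAG2, CSAG3, XAGE1A and ROPN1, the last 3 named after their values were seen. IL13RA2, an X-linked receptor of glioblastoma, was at -0.45 (SE 0.09, edgeR, adjusted p = 8.73e-04) and so stood with MAGEA3 and MAGEA12 rather than with PASD1.

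Regulators of DNA methylation and of germline gene silencing moved in both directions. Of 17 listed, 16 were tested, 4 fell and 7 rose at an adjusted p under 0.05, and 0 were called by edgeR, with 12 under an unadjusted p of 0.05. Over all genes 28.2% fell, 26.3% rose and 4.72% were called, so a count of 0 called is near the background. The lowest value was that of DNMT3A, a de novo DNA methyltransferase, which fell to 43.6% of WT (edgeR, adjusted p = 3.22e-07), from 1453 ± 118 to 633 ± 34.8 normalized counts. HDAC1, a histone deacetylase, fell by 0.70 on the log2 scale (SE 0.08, edgeR, adjusted p = 7.94e-06), and HELLS, a chromatin remodeller needed for DNA methylation, rose by 0.79 (SE 0.08, edgeR, adjusted p = 6.05e-06). DNMT1, the maintenance DNA methyltransferase, was higher by 0.24 (SE 0.09, edgeR, adjusted p = 0.0441), with overlapping groups. UHRF1, which brings DNMT1 to replicated DNA, rose by 0.65 (SE 0.08, edgeR, adjusted p = 2.95e-05), from 4603 ± 523 to 7234 ± 225 normalized counts. The part of these genes in the MAGE-A differences was not tested.

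The genes whose pattern over the 6 libraries was nearest to the mean MAGE-A profile were ALX4, DGKG, SOX18, CD34 and CSF1R, at distances of 0.239 to 0.271 on the log2 scale among 11983 candidates. Their log2 fold changes ran from -2.64 to -2.24. The MAGE-A genes themselves lay 1.63 (MAGEA6), 2.22 (MAGEA3), 2.48 (MAGEA12) and 3.13 (MAGEA1) from that mean, so the mean profile was near none of its members.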

How the data were processed

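Bulk RNA of 3 WT and 3 NUAK2-CR libraries was sequenced as paired reads of 100 bases from a stranded mRNA kit. Per the labels and the study's methods, the authors used Trimmomatic, then HISAT2 against hg38, then featureCounts, each at default parameters, and deposited the raw counts per NCBI gene; the annotation release is not given in the sources used here. Of 28395 identifiers, 27745 were matched to symbols through RefSeq. Between 65.2% and 69.3% of counts from 1 to 10 in a library were even, so counts may hold both mates of a pair and count as fewer independent fragments. Floors cover counting error only, whereas SDs and SEs measure the spread between these libraries. Each SE is the absolute log2 fold change divided by the square root of the F statistic of edgeR.

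Counts were tested with edgeR 4.0.16 in R 4.3.3 (filterByExpr, TMM factors, quasi-likelihood F test, prior count 0.125, no covariate), with Benjamini-Hochberg adjustment over 14873 genes. Calls had an adjusted p below 0.05 and a log2 fold change beyond 2 in either direction. DESeq2 1.42.0, other scalings and filters, summed copies, single libraries left out and a replicate block were alternatives. The edgeR script was tested on simulated data. Copies in hg38 were searched with minimap2 2.31 (at least 99% identity over 90% of the transcript) and the repeat with BLAST 2.17.0. Sequences came from RefSeq (GRCh38.p14) and GENCODE v44.

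The 9 genes and the gene lists were chosen with earlier results of these data known. Named were the 9 genes, every tested MAGE gene, up to 6 called genes of each other list with the largest change, DNMT1, UHRF1, TRIM28 and NUAK2, and the 5 genes (group mean of 100 or more normalized counts in WT or NUAK2-CR) nearest to the mean MAGE-A profile in Euclidean distance of centred log2 normalized counts plus 1. MKRN3, UBE3A, IPW, SNRPN, SNURF, IL13RA2, DNMT3A, HDAC1, HELLS, MAGEA8, MAGEB6 and the genes of the repeat block outside this rule were chosen after their values were seen.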

Additional observations from a re-analysis of the deposited data

How the results depend on the processing

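Of the recomputed values, 212 stayed within their error or, for counts, within 1.5 times, and 20 moved beyond it. The sign of MAGED1, which was not called, turned without WT library 1 (0.05, from -0.04), within its error. Without a filter, 4 other type I MAGE and 14 other cancer/testis genes were called. With at least 10 counts in every library MAGEA1 dropped out, the MAGE-A median became -0.63 and its gap to the broadly expressed genes -0.50, 0 other cancer/testis genes were called, and 339 genes in all; these genes are near 0 in NUAK2-CR, so such a filter removes them. With near-identical copies summed, 1 other type I gene was called, the MAGE-A median was -1.40 and the gap -1.27. DESeq2 called 4 other type I genes, adding MAGEA8 and MAGEB6. Leaving out single libraries gave 2 to 4 other type I genes, 4 without WT library 1 or without NUAK2-CR library 3, where MAGEA8 and MAGEA11 were added. An adjusted p under 0.05 alone called 8107 genes, and a fold threshold of 1 called 2062. The 10 nearest genes gave medians of -0.67 at MAGEA3, -0.69 at MAGEA6 and MAGEA12, and -0.26 at MAGED2 and MAGEH1.

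Libraries with the same number deviated together by correlations of 0.043, -0.035 and 0.048, so the numbers do not pair them. With the replicate block, 709 genes were called, the MAGE-A median was -2.19, and the block changed no call of the MAGE, partner or cancer/testis lists by number.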
